A study of Mus musculus with 6 samples.

Results

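Voltage-gated sodium and calcium channel genes were examined in ventral lumbar spinal cord from mice with and without Gdpd5, the gene of the membrane enzyme GDE2. The members were the protein-coding genes of the GENCODE vM21 annotation whose symbol begins with Scn and a digit, or with Cacna1, Cacna2d, Cacnb or Cacng. They numbered 40, 14 of them sodium channel genes and 26 calcium channel genes, of 17245 annotated genes with any assembled base. The rule uses names and annotation, and it was written with earlier results of these data known.

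A voltage-gated sodium channel consists of a pore-forming alpha subunit, which opens on depolarization and carries the upstroke of the action potential, and of beta subunits that adjust its gating and anchor it in the membrane. A voltage-gated calcium channel has an alpha-1 pore with alpha-2-delta and beta subunits that bring it to the surface, and it couples depolarization to transmitter release, firing pattern and gene expression. In motor neurons the sodium channels cluster at the axon initial segment and at the gaps between myelin segments, and P/Q-type calcium channels trigger release at the neuromuscular junction.

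Poly-A RNA was sequenced from 5-week-old C57BL/6 mice, in 3 wild-type (WT) and 3 Gde2KO libraries. The labels name no other allele, no Cre driver, no treatment and no sex, and they do not say whether a library holds 1 animal or a pool. P-values therefore measure only the spread between these libraries, which may in part be technical. By its title the study is about neuronal GDE2, canonical Wnt activity and maturing oligodendrocytes.

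Levels are in FPKM, fragments per kilobase of transcript scaled to the size of the library, a unit per length in which genes can be set side by side. The authors' assembler gave each assembled transcript its FPKM. The level of a gene is the FPKM summed at each of its counted bases and averaged over them, where counted bases are exonic bases of that gene alone that were assembled in at least 3 of the 6 libraries. Genes with a mean of at least 1 FPKM were tested with limma on log2(FPKM + 0.1), two-sided, and the p-values were adjusted over all 12894 genes tested.

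The 6 libraries held between 31899 and 33791 assembled transcripts, with relative depths of 0.910 to 1.137 around an average of 1. Gdpd5 stood at 5.41, 6.58 and 5.99 FPKM in WT replicates 1 to 3 and at 1.25, 1.20 and 0.952 FPKM in Gde2KO replicates 1 to 3, a fold of 0.202 (95% interval 0.162 to 0.253; limma adjusted p = 0.0053). As a plain sum of transcripts its log2 difference was -1.45 in place of -2.31, and the call was lost (limma adjusted p = 0.0651). All 6 motor neuron markers reached a mean of 1 FPKM, and their summed level was 151 to 186 FPKM in WT and 183 to 205 FPKM in Gde2KO. Of 9 skeletal muscle markers, Myh1, Myh2, Myh4 and Tnnc2 were listed at 0 in every library, and the summed level of the list was 1.40 to 2.54 FPKM. Of 7 sensory ganglion markers, Trpv1, Mrgprd, Prdm12 and Mrgprx1 were listed at 0, and the sum was 0.720 to 1.19 FPKM. Gde2KO replicate 1 had the lowest summed Schwann cell markers, 31.0 FPKM against 88.7 to 271 FPKM elsewhere, and the lowest connective tissue markers, 28.3 FPKM against 58.7 to 76.1 FPKM.

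None of the channel genes differed between the genotypes past the threshold. Of the 40 members, 28 passed the filter on low values and 0 of these 28 were called by limma at an adjusted p under 0.05, where the background was 0.116% of all genes tested. At an unadjusted p under 0.05 there was 1 of 28, Cacng8, against a background of 3.91%. In 0 of 28 did the libraries of one genotype all lie on one side of the other genotype, against a background of 10.9%. The adjusted p-values ran from 0.882 to 0.997. On the log2 scale 9 members were higher and 19 lower in Gde2KO, where 49.9% of all genes tested were lower, and the median log2 difference was -0.07 over the members and 0.00 over all genes. The 95% interval of a member reached a median of 0.26 to either side on the log2 scale, and 0.28 for all genes. A call at the adjusted threshold needs a difference well beyond that interval, so the absence of calls does not show that the levels were alike. In such bulk tissue, fewer cells of a type and less RNA per cell cannot be told apart.

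**Figure D1:**
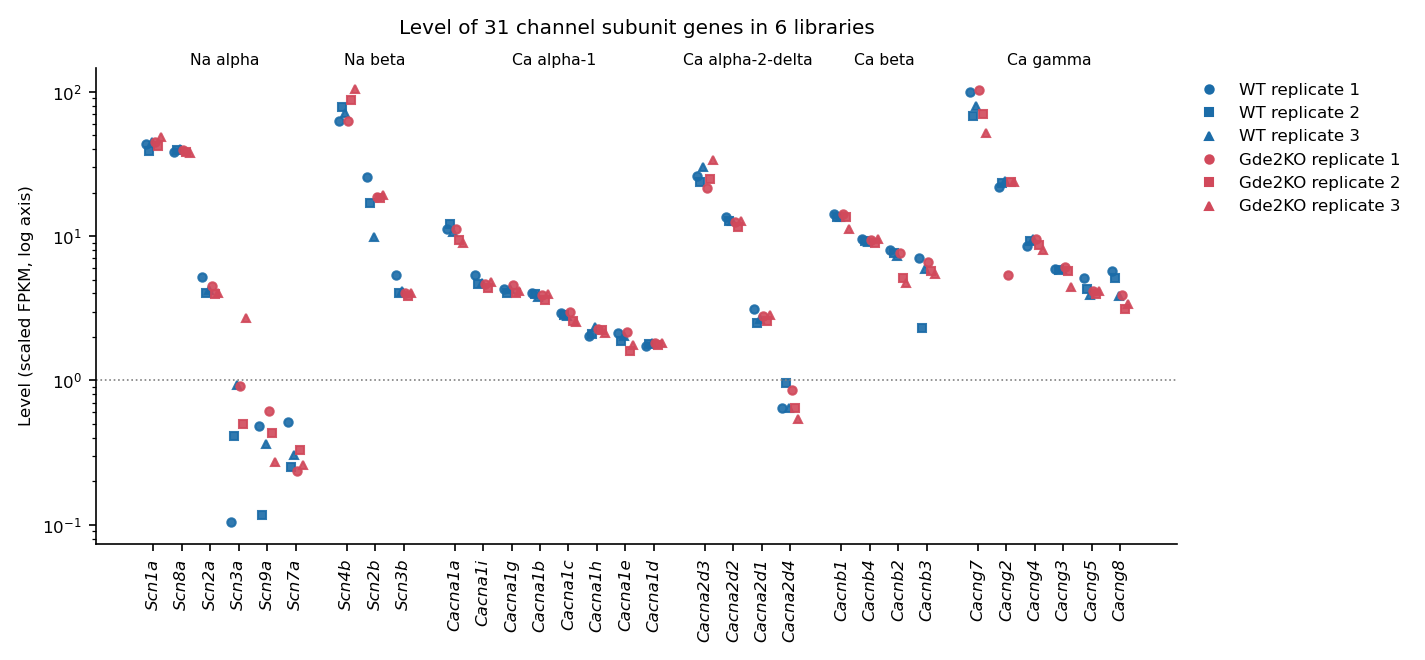
Level in scaled FPKM (log axis) of 31 members with counted bases, by subunit role and, within a role, by mean level. Each point is 1 library, blue for WT and red for Gde2KO, and the dotted line marks 1 FPKM. Scn1a and Scn8a stand together near 40 FPKM, far above the other alpha subunits drawn, and Cacng7 and Scn4b reach the highest levels drawn.

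Most of the 12 members not tested are of 2 kinds. Scn3a, Scn7a, Scn9a and Cacna2d4 had a mean under 1 FPKM. Scn4a, Scn10a, Scn11a, Cacna1f, Cacna1s, Cacng1 and Cacng6 had no assembled transcript in any library. As background, Scn4a, Cacna1s, Cacng1 and Cacng6 are genes of skeletal muscle channels, Scn10a and Scn11a of channels of pain-sensing ganglion neurons, and Cacna1f of a channel of the retina. The files do not tell a gene that is off from a failed assembly, so these members are listed at 0 and given no fold.

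Among the sodium channel alpha subunits, Scn1a and Scn8a carried nearly all of the assembled level. Scn1a encodes the channel best known from fast-spiking inhibitory interneurons and lies on chromosome 2 (GRCm38, 66270778 to 66440840, minus strand). It stood at 43.6, 39.0 and 44.8 FPKM in the WT libraries and at 44.9, 42.3 and 48.6 FPKM in Gde2KO. The groups overlapped, with WT replicate 2 lowest and Gde2KO replicate 3 highest, and the log2 difference was 0.09 (95% interval -0.12 to 0.31; limma adjusted p = 0.882). Scn8a, on chromosome 15 (100869858 to 101045938, plus strand), encodes the main channel of mature initial segments and of the nodes of myelinated axons. It was at 38.4, 39.3 and 40.3 FPKM in the WT libraries and at 39.4, 38.5 and 37.5 FPKM in Gde2KO. These 6 values lay closer together than those of Scn1a, the groups overlapped, and the log2 difference was -0.03 with a 95% interval of -0.17 to 0.10 (limma adjusted p = 0.910). Within the summed level of all alpha subunits, 83.2 to 93.4 FPKM, Scn1a made up 46.9% to 52.1% and Scn8a 40.2% to 47.3%. In WT replicate 2 Scn8a was just above Scn1a and in the other 5 libraries below. The gap was widest in Gde2KO replicate 3, with 37.5 FPKM for Scn8a against 48.6 FPKM for Scn1a. The order of these neighbours thus did not hold in all 6 libraries.

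Scn2a, an alpha subunit of early initial segments and unmyelinated axons, came next with a level of 4.04 to 5.21 FPKM in WT and 3.94 to 4.49 FPKM in Gde2KO. Its range lay apart from that of Scn8a in every library, and its log2 difference was -0.11 (95% interval -0.40 to 0.18; limma adjusted p = 0.884). Scn3a, the alpha subunit typical of embryonic neurons, was assembled in pieces. It had 0.104, 0.411 and 0.922 FPKM in WT and 0.912, 0.494 and 2.69 FPKM in Gde2KO. The high value of Gde2KO replicate 3 came with a longest model of 12 exons, against 20 exons in WT replicate 3 and 1 exon in WT replicate 1. Scn9a, known from pain-sensing and sympathetic neurons, ranged from 0.117 to 0.608 FPKM and Scn7a, a sodium-level sensor of glial and circumventricular cells, from 0.234 to 0.518 FPKM. These ranges overlapped each other, and at this depth no order between Scn9a and Scn7a could be read.

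**Figure D2:**
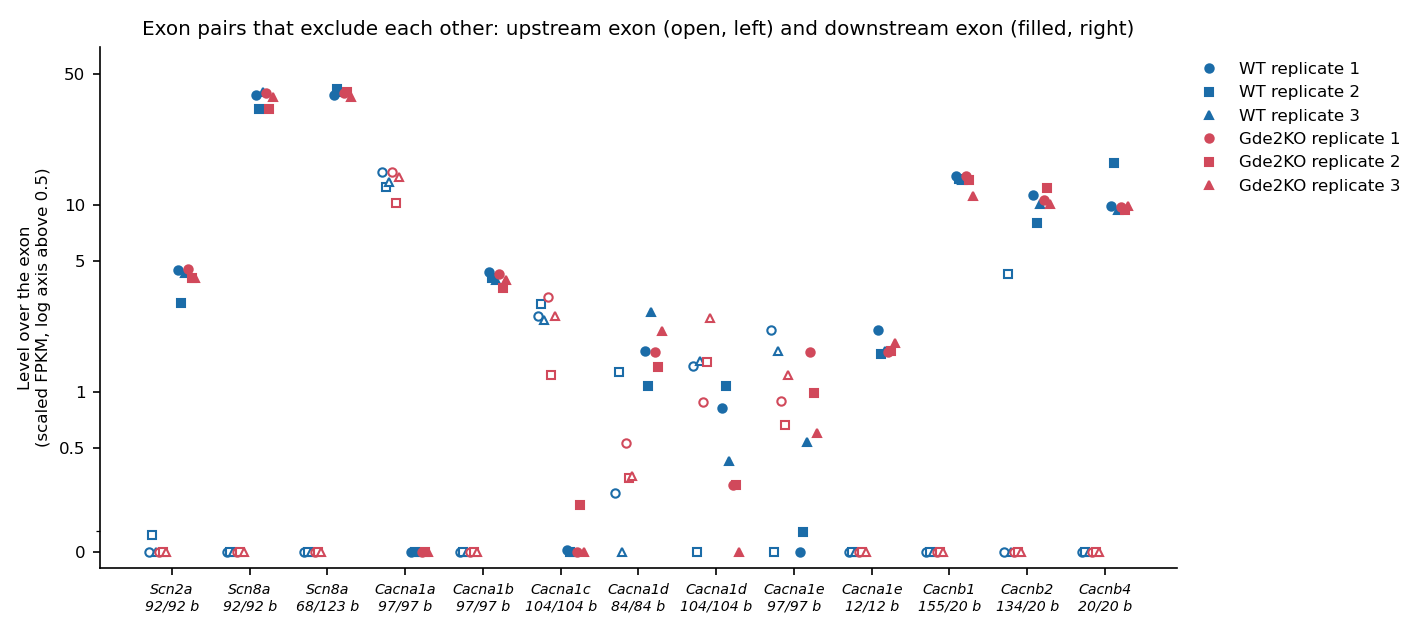
Level over each exon (scaled FPKM, linear to 0.5 and logarithmic above) for the 13 annotated exon pairs that exclude each other in members with a mean of at least 1 FPKM, labelled with the bases of the upstream and downstream exon. Open points are the upstream and filled points the downstream exon, 1 point per library, blue for WT and red for Gde2KO. In 7 pairs one exon lies at 0 in all 6 libraries, while both exons of Cacna1d and of the 97-base pair of Cacna1e hold values between 0 and 2.66 FPKM.

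Several alpha subunit genes carry a pair of exons that stand in for each other and never occur in one annotated transcript. In the sodium channel genes this pair encodes part of the first domain, and the upstream exon is known as the neonatal and the downstream exon as the adult form. In Scn8a and Scn2a the assembled transcripts held almost exclusively the downstream exon of 92 bases. The downstream exon of Scn8a had a level of 38.7, 32.6 and 40.4 FPKM in WT and 39.5, 32.4 and 37.8 FPKM in Gde2KO, and its upstream exon was listed at 0 in every library. The downstream exon of Scn2a had 2.97 to 4.53 FPKM, and its upstream exon was at 0.0784 FPKM in WT replicate 2 and at 0 in the other 5. The level over an exon counts any assembled piece that overlaps it. No assembled transcript held the upstream exon of Scn2a with its annotated ends as an inner exon. Low-level forms can be missing from an assembly, so a listing at 0 does not show that no transcript held the upstream exon. A second pair of Scn8a, with exons of 68 and 123 bases, was also held by its downstream exon alone, at 37.8 to 41.6 FPKM. The corresponding neonatal exons of Scn3a and Scn9a were listed at 0 too, but those genes lay under 1 FPKM. The downstream exon of Scn3a was above 0 in 3 of the 6 libraries. That of Scn9a was at 0 in all 6, so the Scn9a pair shows no choice of exon.

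The sodium channel beta subunits spanned a wide range of levels. Scn4b, whose product supports the resurgent current of fast-firing neurons, was at 62.8, 79.1 and 71.3 FPKM in WT and 63.3, 87.2 and 104 FPKM in Gde2KO. Gde2KO replicates 2 and 3 were above every WT library and replicate 1 was not, so the groups overlapped (log2 difference 0.23, 95% interval -0.26 to 0.73; limma adjusted p = 0.882). The longest Scn4b model held 5251 bases in WT replicate 2 and 5225 in Gde2KO replicate 2, against 7181 to 7371 in the other 4 libraries. In fragments per gene Scn4b was at 464, 427 and 521 in WT and 462, 467 and 574 in Gde2KO, where Gde2KO replicate 3 alone exceeded every WT library and the log2 difference was 0.09 (limma adjusted p = 0.874). Scn2b, the subunit that is disulfide-linked to the alpha subunit, lies beside Scn4b on chromosome 9 and was at 25.8, 17.1 and 9.85 FPKM in WT and 18.8, 18.4 and 19.2 FPKM in Gde2KO. The low value of WT replicate 3 stood with 43.0% of the counted bases assembled there, against 99.8% to 100% in the other 5 libraries. Over the 1982 bases assembled in all 6 libraries WT replicate 3 was at 22.9 FPKM, and the log2 difference of 0.20 became -0.08 (limma adjusted p = 0.944). Scn2b overlaps a gene on the other strand, and the labels do not say whether the libraries keep strand, so reads of the pair could be mixed. Scn3b was lower with a level of 4.01 to 5.34 FPKM in WT and 3.82 to 4.06 FPKM in Gde2KO (log2 difference -0.16, 95% interval -0.47 to 0.14; limma adjusted p = 0.882). Scn4b exceeded Scn2b in each of the 6 libraries, and Scn2b exceeded Scn3b likewise.

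Of the 10 calcium channel alpha-1 genes 8 were tested, and together they summed to 32.5 to 33.8 FPKM in WT and 29.5 to 33.6 FPKM in Gde2KO. Cacna1a, the pore of the P/Q-type channel that drives fast transmitter release, was the highest of them. It lies on chromosome 8 (84388440 to 84640246, plus strand) and was at 11.3, 12.1 and 10.7 FPKM in the WT libraries and at 11.2, 9.39 and 8.92 FPKM in Gde2KO. Gde2KO replicates 2 and 3 lay below every WT library and replicate 1 lay among them (log2 difference -0.21, 95% interval -0.47 to 0.05; limma adjusted p = 0.882). In WT replicate 3 and Gde2KO replicates 2 and 3, 91.2% to 91.3% of its counted bases were assembled, against 100% in the others. Over the 6947 bases assembled in all 6 libraries the level was 11.2 to 12.1 FPKM in WT and 9.83 to 11.0 FPKM in Gde2KO. There the groups did not overlap, as for 10.8% of all genes on that value, and the log2 difference was -0.17 (95% interval -0.34 to 0.01; limma adjusted p = 0.908). Cacna1a made up 29.7% to 36.3% of the summed alpha-1 level in the 6 libraries.

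The remaining alpha-1 genes lay at lower levels, from 1.61 to 5.34 FPKM, and none of them passed the threshold. Cacna1i, Cacna1g and Cacna1h encode the T-type channels, which open near the resting potential and shape rhythmic firing. Cacna1i ranged from 4.33 to 5.34 FPKM and Cacna1g from 4.05 to 4.57 FPKM, so these neighbours overlapped, and Cacna1h stood lower at 2.03 to 2.33 FPKM. Their log2 differences were -0.09, 0.01 and 0.04 in that order. Cacna1b, the pore of the N-type channel of presynaptic terminals, ranged from 3.60 to 4.06 FPKM (log2 difference -0.04, 95% interval -0.21 to 0.13). Cacna1c and Cacna1d encode the L-type channels of neuronal cell bodies and dendrites, the second of which contributes to persistent inward currents of motor neurons. Cacna1c ranged from 2.53 to 2.99 FPKM (log2 difference -0.08, 95% interval -0.30 to 0.14). Cacna1e, the R-type pore, ranged from 1.61 to 2.18 FPKM (log2 difference -0.12, 95% interval -0.45 to 0.20). Cacna1d had an even level, with 1.74, 1.77 and 1.81 FPKM in WT and 1.81, 1.76 and 1.81 FPKM in Gde2KO. Its groups overlapped throughout and the log2 difference was 0.02 (95% interval -0.17 to 0.20). Over these 7 genes the limma adjusted p-values ran from 0.882 to 0.979. As a plain sum of transcripts their log2 differences ran from -0.74 for Cacna1e to 0.09 for Cacna1g (limma adjusted p from 0.921 to 0.983).

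The assembled Cacna1d transcripts nevertheless ended differently in the genotypes, and the stretch described here was chosen after its values were seen. In each WT library 1 transcript ended in an exon of 5741, 5689 or 5699 bases that starts at position 30061598 of chromosome 14 (GRCm38, minus strand) and reaches to about 30055858. No exon is annotated there, and the stretch lies within the intron before exon 42 of the 49 exons of ENSMUST00000224198.1. In Gde2KO the matching exon held 16, 442 and 15 bases. The same stretch was nonetheless assembled in Gde2KO as pieces without a strand, which covered 88.6%, 90.7% and 100% of it in replicates 1 to 3. Counting both kinds, its mean level was 1.42, 1.53 and 1.37 FPKM in WT and 1.56, 1.53 and 1.52 FPKM in Gde2KO. The groups overlapped in this level, and they did not overlap in the length joined to the gene's exons. How many of all genes have assembled ends that separate the groups was not counted, so this length has no background beside it. In fragments per gene, which counts the stretch only where it is joined, Cacna1d was at 24.2, 25.5 and 24.6 in WT and at 17.4, 16.9 and 16.5 in Gde2KO. On that value the groups did not overlap, as for 10.6% of all genes, and the log2 difference was -0.55 (limma adjusted p = 0.0751), where 0.0778% of all genes were called.

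Exon pairs of the presynaptic alpha-1 genes were as one-sided as those of the sodium channels, though not on the same side. The pair of 97 bases near the 3′ end encodes a stretch of the intracellular tail. The exons of Cacna1a and Cacna1b are shown because the first gene was assembled with its upstream exon and the second with its downstream exon. The bases are from GENCODE vM21 transcripts on GRCm38, 5′ to 3′ on the gene's strand, and capitals mark the positions at which the upstream and downstream exon of a pair differ.
Cacna1a upstream exon, chr8:84614695-84614791: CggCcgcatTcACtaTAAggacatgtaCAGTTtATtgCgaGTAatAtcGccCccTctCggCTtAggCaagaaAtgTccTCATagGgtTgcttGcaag
Cacna1a downstream exon, chr8:84615574-84615670: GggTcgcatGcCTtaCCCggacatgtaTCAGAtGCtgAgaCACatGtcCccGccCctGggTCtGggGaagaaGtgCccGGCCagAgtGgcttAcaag
Cacna1b upstream exon, chr2:24626823-24626919: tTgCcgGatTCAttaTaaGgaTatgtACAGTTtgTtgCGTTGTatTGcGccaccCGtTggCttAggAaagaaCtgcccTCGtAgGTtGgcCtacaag
Cacna1b downstream exon, chr2:24625238-24625334: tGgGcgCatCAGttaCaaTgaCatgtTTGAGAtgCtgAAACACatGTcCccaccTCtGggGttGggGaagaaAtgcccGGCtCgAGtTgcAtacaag
The exons of Cacna1a differ at 37 of 97 bases and those of Cacna1b at 40 of 97 bases. The upstream exon of Cacna1a had a level of 14.9, 12.5 and 13.3 FPKM in WT and 15.1, 10.3 and 14.1 FPKM in Gde2KO, and its downstream exon was listed at 0 in all 6 libraries. For Cacna1b the downstream exon had 4.39, 4.06 and 3.96 FPKM in WT and 4.28, 3.61 and 3.95 FPKM in Gde2KO, with the upstream exon at 0 throughout. As background, the upstream exon of the N-type gene is known in rat from pain-sensing ganglion neurons. Of the 7 sensory ganglion markers 4 were listed at 0 here. Th reached 1.10 FPKM in WT replicate 1, P2rx3 0.886 FPKM in Gde2KO replicate 3 and Avil 0.543 FPKM in Gde2KO replicate 1. A link between such cells and the exon was not tested.

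Among the other calcium channel pairs, Cacna1e held both exons of its 97-base pair. The upstream exon was at 2.14, 0 and 1.66 FPKM in WT and 0.893, 0.663 and 1.23 FPKM in Gde2KO, the downstream exon at 0, 0.0964 and 0.537 FPKM in WT and 1.63, 0.989 and 0.598 FPKM in Gde2KO. The share of the downstream exon was 41.5% ± 52.1 over the 3 WT libraries (± SD) and 52.4% ± 17.2 over the 3 Gde2KO libraries, which did not differ beyond the spread (exact permutation p = 0.9, where 3 libraries against 3 cannot go below 0.10). Cacna1d held both exons of its 104-base pair, with a downstream share of 53.5% ± 40.9 in WT and 15.0% ± 13.7 in Gde2KO (exact permutation p = 0.2). Its 84-base pair had downstream shares of 77.1% ± 28.0 in WT and 79.9% ± 5.03 in Gde2KO (exact permutation p = 1). The upstream exon of that pair lay above 0 in 5 libraries. In only 1 library did a transcript hold it with its annotated ends as an inner exon. Cacna1c was assembled mainly with its upstream exon of 104 bases, at 1.23 to 3.20 FPKM, and its downstream exon reached 0.224 FPKM in Gde2KO replicate 2. No assembled transcript held this downstream exon with its annotated ends as an inner exon. These 3 genes had mean levels under 3 FPKM, and the downstream share of the 97-base pair of Cacna1e ran from 0% to 100% within WT. The 12-base pair of Cacna1e and the pairs of Cacnb1 and Cacnb4 had their downstream exon alone. For Cacnb2 the upstream exon was overlapped by an assembled piece in WT replicate 2 alone, at 4.25 FPKM. No transcript held that Cacnb2 exon with its annotated ends as an inner exon.

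Of the alpha-2-delta subunits, the extracellular proteins that traffic calcium channels to the membrane and that bind gabapentin in the case of the first 2 genes, Cacna2d3 led. It lies on chromosome 14 (28904943 to 29721864, minus strand) and was at 26.2, 23.8 and 30.0 FPKM in the WT libraries and at 21.7, 24.9 and 33.9 FPKM in Gde2KO. The lowest and the highest library were both Gde2KO, and the log2 difference was -0.01 (95% interval -0.46 to 0.45; limma adjusted p = 0.996). In Gde2KO replicate 1, the lowest library, the first exon of the longest Cacna2d3 model held 1427 bases, against 61 to 972 elsewhere. In fragments per gene Cacna2d3 was at 96.4, 106 and 110 in WT and 106, 105 and 123 in Gde2KO, with WT replicate 1 lowest and a log2 difference of 0.09 (limma adjusted p = 0.865). Cacna2d2 followed at 12.7 to 13.6 FPKM in WT and 11.5 to 12.7 FPKM in Gde2KO (log2 difference -0.09, 95% interval -0.26 to 0.07; limma adjusted p = 0.882). Cacna2d1, the subunit raised after nerve injury in rodents, stood at 2.51 to 3.10 FPKM (log2 difference -0.01; limma adjusted p = 0.992). Cacna2d4, known from the retina, had 0.542 to 0.954 FPKM and was not tested. The ranges of these 4 genes did not overlap one another over the 6 libraries.

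The beta subunits bind the alpha-1 pore from inside the cell and set its surface number and gating. Cacnb1 was highest with 11.2 to 14.3 FPKM (log2 difference -0.09), and Cacnb4 came next with 9.01 to 9.57 FPKM (log2 difference 0.00, 95% interval -0.14 to 0.14). Cacnb2 was at 8.05, 7.69 and 7.24 FPKM in the WT libraries and at 7.63, 5.12 and 4.77 FPKM in Gde2KO. Gde2KO replicates 2 and 3 were the lowest 2 libraries, and the log2 difference was -0.42 (95% interval -0.87 to 0.04; limma adjusted p = 0.882). In these 2 libraries the last exon of the longest Cacnb2 transcript held 113 and 23 bases against 1000 to 1002 in the other 4. Over the 3014 bases assembled in all 6 libraries Cacnb2 was at 6.28 to 6.96 FPKM in WT and 6.54 to 6.76 FPKM in Gde2KO, with a log2 difference of 0.02. On coding bases it was -0.30 (limma adjusted p = 0.901) and in fragments per gene -0.36 (limma adjusted p = 0.865). With each library left out in turn, Cacnb2 was at -0.62 to -0.29. Cacnb3 was at 7.00, 2.30 and 5.93 FPKM in the WT libraries and at 6.63, 5.71 and 5.45 FPKM in Gde2KO. WT replicate 2 stood far below the other 5 libraries, and there 58.3% of the counted bases were assembled against 91.6% to 99.8% elsewhere. The log2 difference of Cacnb3 was 0.36 (95% interval -0.69 to 1.41; limma adjusted p = 0.884) with all libraries and -0.12 without WT replicate 2.

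The gamma genes are named for a muscle calcium channel subunit, but Cacng2, Cacng3, Cacng4 and Cacng8 encode proteins that bring AMPA-type glutamate receptors to the synapse and slow their closing, and Cacng5 and Cacng7 encode related AMPA receptor partners. All 6 tested gamma genes had a log2 difference below 0, from -0.67 to -0.06, where 49.9% of all genes tested were lower, and none passed. The direction did not hold throughout. Without Gde2KO replicate 3 Cacng3, Cacng4 and Cacng7 were at 0.01, 0.00 and 0.07, and without Gde2KO replicate 1 Cacng2 was at 0.04. With each library left out in turn, Cacng5 was at -0.19 to 0.00 and Cacng8 at -0.63 to -0.35. Cacng7 was highest, with 99.3, 68.5 and 80.2 FPKM in WT and 103, 70.7 and 52.2 FPKM in Gde2KO. Replicate 1 of either genotype was high and Gde2KO replicate 3 low, and the log2 difference was -0.17 (95% interval -0.86 to 0.52; limma adjusted p = 0.907). In both replicates numbered 1 the first exon of the assembled Cacng7 transcript held 139 and 121 bases, against 1022 to 1321 in the other 4. In fragments per gene, where assembled length is no divisor, Cacng7 was at 203, 220 and 235 in WT and 211, 228 and 164 in Gde2KO, so that WT replicate 1 was the lowest WT library and Gde2KO replicate 3 stayed lowest of all (log2 difference -0.14; limma adjusted p = 0.865). The summed markers of the superficial dorsal horn were lowest in Gde2KO replicate 3 too, at 83.9 FPKM against 112 to 178 FPKM in the other libraries, and their part in the level of Cacng7 was not tested.

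Cacng2, known as stargazin, lies on chromosome 15 (77991748 to 78120028, minus strand) and was at 21.9, 23.2 and 24.3 FPKM in the WT libraries and at 5.34, 23.7 and 23.8 FPKM in Gde2KO. Gde2KO replicate 1 alone was low, and the log2 difference of -0.67 (95% interval -2.22 to 0.88; limma adjusted p = 0.882) became 0.04 without it. In that library the last exon of the longest Cacng2 transcript held 235 bases, against 3786 to 3932 in the other 5, and 29.5% of the counted bases were assembled. Over the 1532 bases assembled in all 6 libraries the level was 21.5, 23.2 and 24.5 FPKM in WT and 18.1, 17.5 and 19.0 FPKM in Gde2KO. On that value the groups did not overlap, as for 10.8% of all genes, and the log2 difference was -0.34 (95% interval -0.52 to -0.16; limma adjusted p = 0.908, unadjusted 0.0032). An unadjusted p under 0.05 was reached by 4.35% of all genes on that value. Over the coding bases, where Gde2KO replicate 1 was at 12.8 FPKM and the other 5 libraries at 22.3 to 26.8 FPKM, the log2 difference was -0.25 (limma adjusted p = 0.902). Cacng2 also overlaps a gene on the other strand, with the same limit as Scn2b.

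Cacng8 had the smallest unadjusted p of the members, 0.0318. It was at 5.71, 5.12 and 3.87 FPKM in the WT libraries and at 3.91, 3.12 and 3.40 FPKM in Gde2KO. WT replicate 3 lay between the Gde2KO libraries, and the log2 difference was -0.47 (95% interval -0.88 to -0.06; limma adjusted p = 0.882). In WT replicate 3 and Gde2KO replicates 2 and 3 the last exon held 19, 42 and 19 bases, against 1043 to 2781 in the other 3 libraries, and 61.2% to 62.5% of the counted bases were assembled. Over the 1106 bases assembled in all 6 libraries Cacng8 was at 4.59 to 6.30 FPKM in WT and 3.69 to 5.58 FPKM in Gde2KO, with a log2 difference of -0.17 (limma adjusted p = 0.910). On coding bases it was -0.69 (95% interval -1.41 to 0.04; limma adjusted p = 0.901). Under the alternatives the log2 difference of Cacng8 ran from -0.69 to -0.17. Cacng4 at 7.97 to 9.56 FPKM, Cacng3 at 4.46 to 6.10 FPKM and Cacng5 at 3.93 to 5.09 FPKM had log2 differences of -0.06, -0.13 and -0.11. In Cacng3 and Cacng4 Gde2KO replicate 3 was the lowest library, and the ranges of Cacng3, Cacng5 and Cacng8 overlapped one another.

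**Figure D3:**
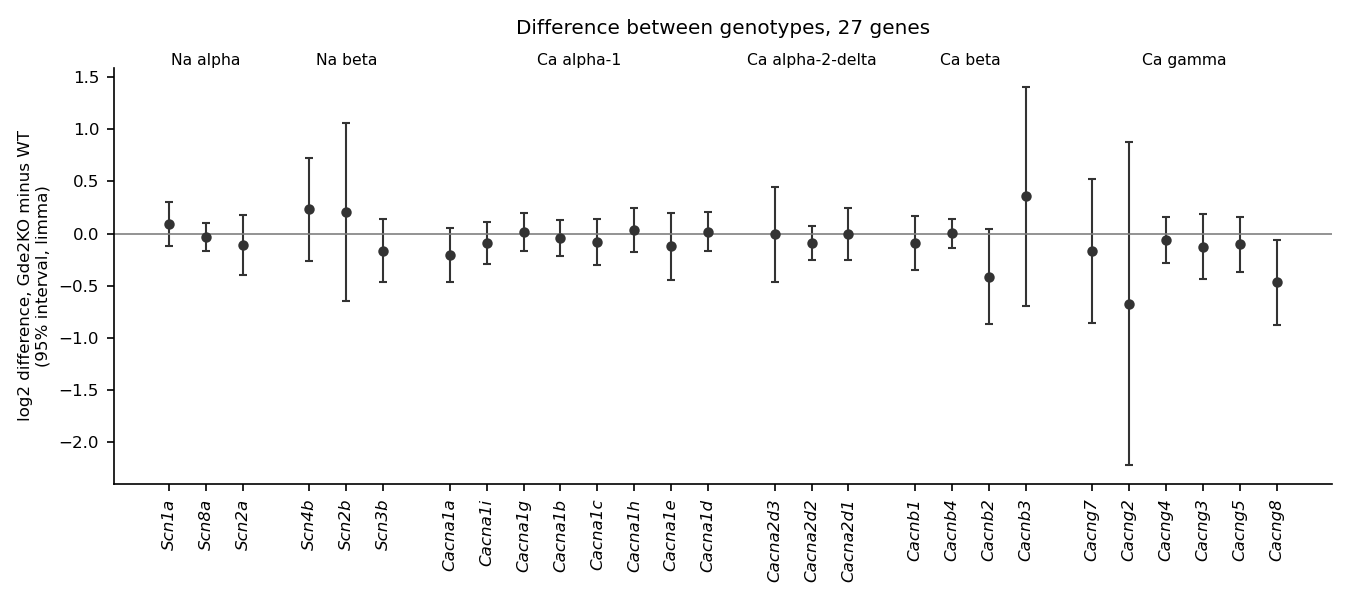
Log2 difference between genotypes (Gde2KO minus WT) of 27 of the 28 members tested, by subunit role, with 95% intervals from limma on log2(FPKM + 0.1). Every interval drawn but that of Cacng8 (-0.88 to -0.06) holds 0, and the widest belong to Cacng2 and Cacnb3.

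**Figure D4:**
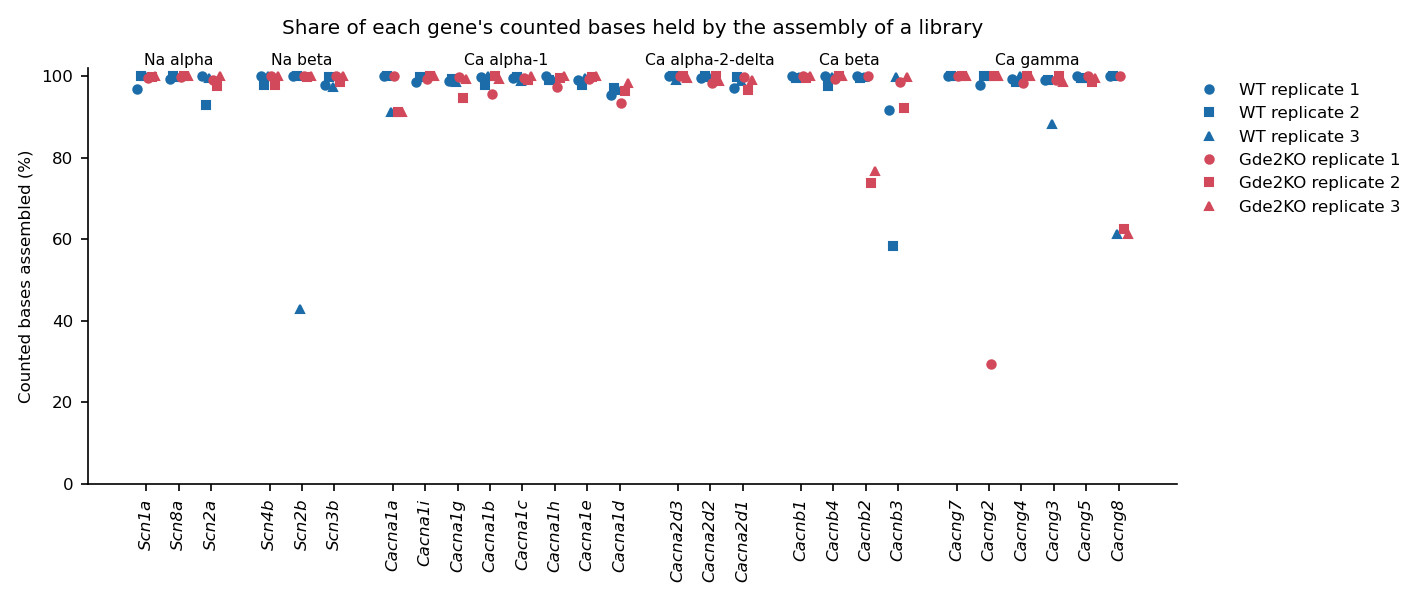
Share of the counted bases (%) of 27 of the 28 members tested that the assembly of a library held, 1 point per library, blue for WT and red for Gde2KO. Nearly all points lie above 90%, and the 8 below 80% belong to Scn2b, Cacnb2, Cacnb3, Cacng2 and Cacng8.

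The extent of the assembled models differed between libraries in most, but not all, of the members with the largest log2 differences. A size beyond 0.25 was reached by 5 members, among them Cacnb2, Cacnb3, Cacng2 and Cacng8, and on bases assembled in all 6 libraries by 2, among them Cacng2. On either value 0 of 28 members were called, against 0.032% of all genes on the bases assembled throughout. Calls at an unadjusted p under 0.05 numbered 1 on both values, Cacng8 on the value used and Cacng2 on the bases assembled throughout.

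**Figure D5:**
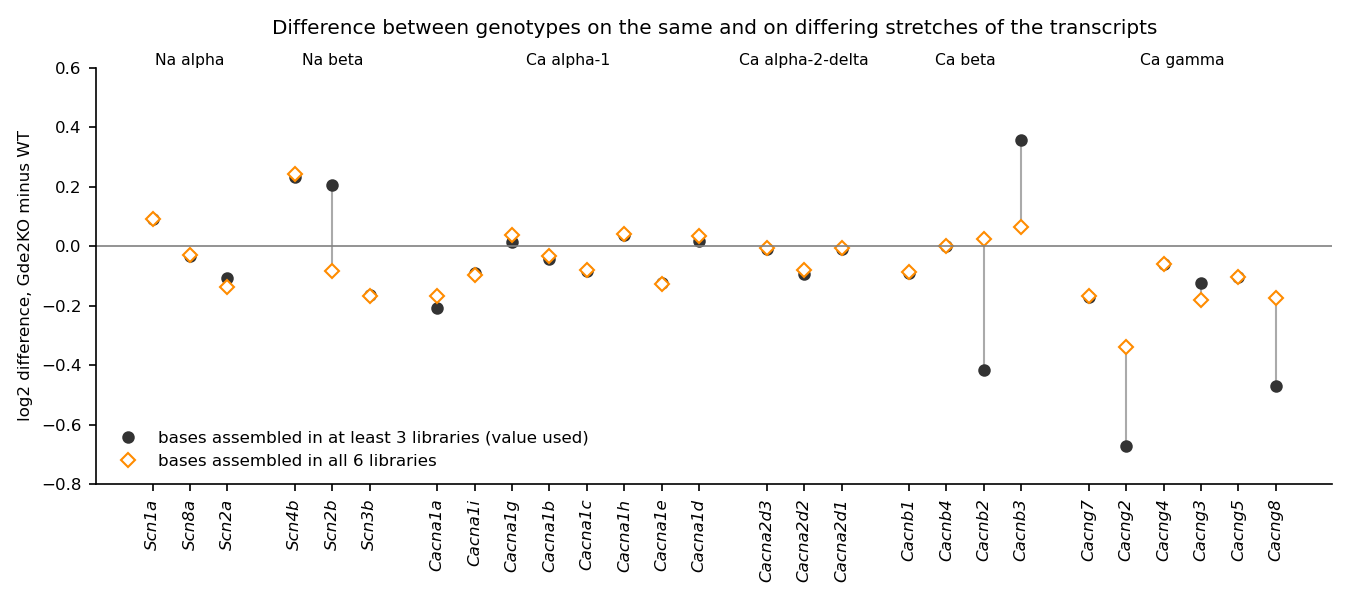
Log2 difference between genotypes (Gde2KO minus WT) of 27 of the 28 members tested, on the counted bases assembled in at least 3 libraries (black) and on those assembled in all 6 (orange), joined by a line. Scn2b, Cacnb2, Cacnb3, Cacng2 and Cacng8 move the most between the values, while the other members hardly move.

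Genes whose products bind or regulate these channels were read out of the same fit. All 22 sodium channel partners were tested, among them ankyrins, spectrins, node adhesion molecules and leak channel subunits. Of these 22, 0 were called, with 5 higher, 17 lower and a median log2 difference of -0.04. Over all genes tested 0.116% were called and 49.9% were lower, with a median of 0.00. Unc80, a subunit of the sodium leak channel, had the smallest p of the list, with 19.1 to 20.2 FPKM in WT and 16.4 to 19.0 FPKM in Gde2KO (log2 difference -0.15, 95% interval -0.33 to 0.03). Ank3, the ankyrin that anchors sodium channels at initial segments and nodes, stood at 31.3 to 33.6 FPKM in WT and 27.6 to 31.1 FPKM in Gde2KO (log2 difference -0.14). The spectrin gene Sptbn4, of the same scaffold, was at 9.86 to 11.9 FPKM in WT and 11.7 to 12.2 FPKM in Gde2KO (log2 difference 0.16). In WT replicates 1 and 3, its lowest libraries, 91.1% and 89.7% of the counted bases of Sptbn4 were assembled, against at least 99.6% elsewhere. Unc80 and Ank3 did not overlap between the genotypes and Sptbn4 did.

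Of the 34 calcium channel partners 27 were tested and 0 called, with 8 higher, 19 lower and a median log2 difference of -0.05. The shares over all genes tested were 0.116% called and 49.9% lower. Pclo, a scaffold of the release site, was at 6.22 to 7.41 FPKM in WT and 5.09 to 5.98 FPKM in Gde2KO (log2 difference -0.24, 95% interval -0.49 to 0.01), with 61.3% of its counted bases assembled in Gde2KO replicate 2. Camk2b, a calcium-dependent kinase, was at 58.2 to 62.3 FPKM in WT and 51.7 to 56.8 FPKM in Gde2KO (log2 difference -0.15). Ppp3ca, the catalytic subunit of the phosphatase calcineurin, was at 36.1 to 55.6 FPKM in WT and 57.8 to 63.6 FPKM in Gde2KO (log2 difference 0.36, 95% interval -0.08 to 0.79), with 45.9% of its counted bases assembled in WT replicate 1, its lowest library. These 3 genes did not overlap between the genotypes, and for the 6 partners named the limma adjusted p was 0.882. Non-overlapping groups were found for 3 of 22 and 3 of 27 genes of the lists, against the background of 10.9% of all genes.

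Members lie close together, with gaps under 1000000 bases, at 7 places of the genome. On chromosome 2, 5 alpha subunit genes, Scn3a, Scn2a, Scn1a, Scn9a and Scn7a, share 1.33 Mb, and their mean levels ran from 0.315 FPKM for Scn7a to 43.9 FPKM for Scn1a. On chromosome 7, Cacng7, Cacng8 and Cacng6 share 0.103 Mb, with mean levels of 79.1 FPKM for Cacng7 and 4.19 FPKM for Cacng8 while Cacng6 was listed at 0. Gdpd5 itself is on chromosome 7 together with 5 members, the nearest of them at a distance of 23.3 Mb.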

How the data were processed

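Poly-A RNA of the 6 libraries was aligned with TopHat2 2.1.1 to mm10 and assembled with Cufflinks 2.2.1, and Cuffdiff 2.2.1 and FastQC were used, per the submitters' processing notes. The values used are the FPKM that the authors deposited with each assembled transcript of each library; FPKM is normalized to length and library size, and read counts were not used. Each library was assembled separately, so the same gene can have models of different extent.

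Transcripts of at least 200 exonic bases were matched to GENCODE vM21 genes by exon overlap on the same strand. Levels were scaled between libraries by median-of-ratios factors of 0.983 to 1.03, and genes reaching 200 counted bases and an average of 1 FPKM entered limma 3.58.1 (R 4.3.3; trend and robust moderation, Benjamini-Hochberg adjustment, threshold 0.05), two-sided on log2(FPKM + 0.1). Fold changes on that scale understate changes of low genes. The script was tested on simulated data. Results on some members and exon sequences are not reported here, though the counts over members include them. The other tested members are named, and of each partner list the 3 genes with the smallest p. The members and lists were chosen with earlier results of these data known. Alternatives covered the value per gene, the bases, the filter, the pseudocount, the scaling, the variance model, a replicate block and leaving out each library. Intervals cover the spread between libraries; the depth in reads is unknown.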

Additional observations from a re-analysis of the deposited data

How the results depend on the processing

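No channel gene passed the threshold under any of the 16 alternatives with all libraries or the 6 that left one out, and the smallest adjusted p was 0.0751, for Cacna1d in fragments per gene. Over all genes 15 were called. The number called was 4 on bases assembled in all 6 libraries, 4 with a pseudocount of 0.01, 1 with a mean of at least 5 FPKM, 25 with no filter on low values, 4 with values listed at 0 treated as missing, and 10 to 26 when 1 library was left out. With the replicate number as a block, 2 genes were called and no member; same-numbered libraries deviated with correlations of 0.01, 0.04 and -0.07, so the numbers were not taken to pair them. Gdpd5 stayed lower with a log2 difference of -1.45 as a plain sum of transcripts (limma adjusted p = 0.0651) and -2.31 with the block (adjusted p = 0.155), over a range of adjusted p from 0.000851 to 0.155; the cause was not tested.

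Of 604 values of members under alternatives 38 changed sign, in 16 members, and 8 of these reached beyond 0.1 on the other side. As a plain sum the log2 difference was -0.30 for Cacna1d, -0.33 for Cacna1h, 0.05 for Cacna2d2, 0.03 for Cacnb2, -0.24 for Cacnb4, -0.10 for Scn1a and -0.09 for Scn2b. In fragments per gene it was -0.55 for Cacna1d, 0.09 for Cacna2d3 and -0.02 for Cacnb4. On coding bases it was -0.16 for Cacnb4 and -0.09 for Scn2b, and on bases assembled in all 6 libraries 0.02 for Cacnb2 and -0.08 for Scn2b. Without scaling it was -0.01 for Cacna1d, -0.02 for Cacna1g and -0.03 for Cacnb4, with quantile normalization 0.02 for Cacna2d1, and with a mean of at least 5 FPKM -0.01 for Cacnb4. The cause of these changes was not tested.

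Leaving out 1 library in turn gave log2 differences of -0.04 to 0.05 for Cacna1g, 0.00 to 0.09 for Cacna1h, -0.07 to 0.08 for Cacna2d1, -0.19 to 0.13 for Cacna2d3, -0.16 to 0.02 for Cacnb1, -0.12 to 0.66 for Cacnb3, -0.01 to 0.03 for Cacnb4, -1.03 to 0.04 for Cacng2, -0.21 to 0.01 for Cacng3, -0.13 to 0.00 for Cacng4, -0.43 to 0.07 for Cacng7 and -0.16 to 0.53 for Scn2b. Cacnb3 turned without WT replicate 2, Scn2b without WT replicate 3, Cacng2 without Gde2KO replicate 1, and Cacng3, Cacng4, Cacng7 and Cacnb1 without Gde2KO replicate 3. Without Gde2KO replicate 1, 5 of 28 members had an unadjusted limma p under 0.05, against 1 of 28 with all libraries. The share of all genes under 0.05 in that setting was not counted. The smallest limma adjusted p of the members was 0.266 there, for Cacnb2, against 0.882 with all libraries. The number of libraries and the separate assembly of each limit what can be detected.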
